A study of Mus musculus with 4 samples.

Results

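Among 277 mouse haematopoietic stem cells (HSCs) profiled singly, 70 held little Fos transcript. They were chosen by 1 measured value: a Fos level below 1000 CPM, that is counts scaled to a common total, here the total of the cell itself. They are called Fos-low HSCs here, and the other 207 cells of the same libraries are called other HSCs. Jun, the second gene used to mark these cells, took no part in the choice and was also lower in Fos-low HSCs.

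Fos-low HSCs and other HSCs share 1 source and were divided by the Fos level of the cell alone. All came from bone marrow of wild-type mice, 8 weeks old, with no treatment named in the labels. Marrow was enriched for c-Kit with magnetic beads and sorted for cells negative for lineage markers and CD48 and positive for Kit, Sca1, CD150 and CD201 (EPCR), a phenotype known as ESLAM SK. The study set CD27-negative against CD27-positive HSCs by single-cell tagged reverse transcription sequencing (STRT-seq), which barcodes the RNA of each cell. Each of the 4 libraries is labelled with both CD27 gates, and the gate of a cell is given in no source used here, so no cell was placed in a gate. Whether the libraries came from separate mice is not given either. The p-values thus set the difference between the sides against how much it varies over these 4 libraries, a variation that may be technical.

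Fos and Jun encode the partners of AP-1, a dimeric transcription factor. Fos is the standard example of an immediate early gene: its transcription starts within minutes of a growth factor, cytokine or stress signal and needs no new protein. Kinase cascades that end on serum response factor and on CREB act at its promoter, and the transcript is short-lived. The same genes are also known to come on while cells are taken out of a tissue.

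Promoters are shown for Fos and for 4 of the genes that were lower in Fos-low HSCs, because these genes moved together. Each is the 250 bases before the RefSeq start on GRCm38.p6, written along the strand of the gene. Capitals mark TGACG on either strand (CGTCA on the strand shown), the core of the cyclic AMP response element that CREB and ATF proteins bind, or the longer TGACGTCA. In Jun, which has no TGACG in this window, they mark TGACATCA, the AP-1-like element of the Jun promoter. The windows are chr12:85473640-85473889 on the plus strand for Fos, chr15:101266596-101266845 on the plus strand for Nr4a1, chr7:45526269-45526518 on the minus strand for Ppp1r15a, chr17:26508473-26508722 on the minus strand for Dusp1 and chr4:95052223-95052472 on the minus strand for Jun.
Fos: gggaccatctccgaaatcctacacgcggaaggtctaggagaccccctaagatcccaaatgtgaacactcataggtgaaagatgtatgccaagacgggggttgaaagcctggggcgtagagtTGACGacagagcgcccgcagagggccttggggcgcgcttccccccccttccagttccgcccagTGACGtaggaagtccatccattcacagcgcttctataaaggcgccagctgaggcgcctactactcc
Nr4a1: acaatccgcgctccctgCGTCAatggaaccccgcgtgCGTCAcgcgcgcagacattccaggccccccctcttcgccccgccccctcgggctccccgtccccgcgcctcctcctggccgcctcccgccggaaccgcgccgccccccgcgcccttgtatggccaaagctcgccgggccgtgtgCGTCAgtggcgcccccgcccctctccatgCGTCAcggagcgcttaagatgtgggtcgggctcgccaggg
Ppp1r15a: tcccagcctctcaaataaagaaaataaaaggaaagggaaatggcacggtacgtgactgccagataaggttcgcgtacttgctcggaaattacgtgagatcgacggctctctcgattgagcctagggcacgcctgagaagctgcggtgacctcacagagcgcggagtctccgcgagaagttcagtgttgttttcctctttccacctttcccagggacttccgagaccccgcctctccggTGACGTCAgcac
Dusp1: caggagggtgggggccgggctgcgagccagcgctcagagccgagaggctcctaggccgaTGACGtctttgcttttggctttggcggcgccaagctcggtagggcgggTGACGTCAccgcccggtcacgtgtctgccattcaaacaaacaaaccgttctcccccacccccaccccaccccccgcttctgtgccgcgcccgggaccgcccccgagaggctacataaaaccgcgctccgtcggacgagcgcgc
Jun: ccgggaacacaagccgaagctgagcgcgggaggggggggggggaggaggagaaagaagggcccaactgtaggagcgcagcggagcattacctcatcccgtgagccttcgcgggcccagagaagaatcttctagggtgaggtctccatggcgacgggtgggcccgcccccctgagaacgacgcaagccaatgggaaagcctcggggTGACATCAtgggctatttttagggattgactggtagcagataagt

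TGACG, searched on both strands, was found in the window of 11 of 14 genes, namely Fos and 10 of the 13 matched genes that were lower in Fos-low HSCs (Atf4, Btg2, Dnajb1, Dusp1, Fosb, H3f3b, Junb, Klf2, Nr4a1 and Ppp1r15a). It was present in 17.8% of all 32851 promoters in the RefSeq set and in 27.5% of the 9835 promoters of genes tested. TGACGTCA, which contains TGACG on both strands, was found in Btg2, Dusp1 and Ppp1r15a, against 1.55% of all promoters and 2.60% of those of genes tested. TGACATCA was found in Jun and Klf6, against 2.93% of all promoters and 1.48% of those of genes tested. The CArG box of serum response factor was found in Zfp36, against 1.47% of all promoters and 1.05% of those of genes tested. TATAAA was found in Fos and H3f3b, against 12.4% and 6.10%. A site further upstream than 250 bases would be missed, so a motif not found here may still be present in the gene. These matches describe letters in a window and are not shown to be bound. Ier2, Egr1 and Hes1 were among the genes not matched.

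Fos itself (ENSMUSG00000021250.13, chromosome 12, 85473890 to 85477273, plus strand, GRCm38) is described without a test, since it chose the cells. Summed over the cells of each library, it stood at 192, 139, 199 and 199 CPM in Fos-low HSCs of libraries 1 to 4, against 6209, 6970, 5420 and 5660 CPM in other HSCs. The median Fos-low cell held 60.8, 60.3, 63.5 and 64.7 CPM, and the median other cell 6256, 6444, 4539 and 5553 CPM. Most Fos-low cells thus lay far under the threshold, and the sides are apart by construction. In counts, the median Fos-low cell held 5 and the median other cell 576.

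Of the ranges of Fos listed next, which differ in width, that from 250 to 500 CPM held the fewest cells. Between 500 and 2000 CPM lay 34 of 277. Of all kept cells, 45 stood below 100 CPM, 9 from 100 to 250, 5 from 250 to 500 and 11 from 500 to 1000, against 23 from 1000 to 2000, 46 from 2000 to 4000, 74 from 4000 to 8000 and 64 at 8000 or more. The cells just inside the threshold held 852, 874 and 906 CPM, and those just outside it 1049, 1117 and 1158 CPM. No count of Fos was found in 6 Fos-low cells, 1 in library 1, 4 in library 3 and 1 in library 4. Their totals ran from 17347 to 60566 counts.

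**Figure D1:**
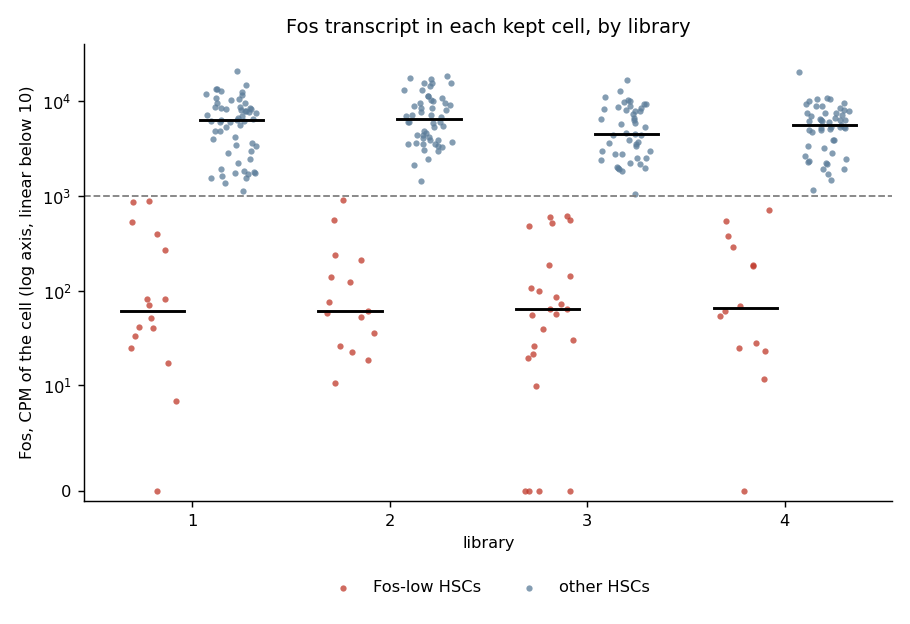
Fos in each kept cell (CPM of the cell, log axis that is linear below 10), by library, with Fos-low HSCs and other HSCs in separate colours. Fos-low cells gather near their library medians of 60.3 to 64.7 CPM, and other cells spread from 1049 to 20964 CPM.

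Fos-low HSCs were found in all 4 libraries and were most frequent in library 3. They were 16 of 74 cells in library 1 (21.6%, exact binomial 95% interval 12.9 to 32.7), 15 of 67 in library 2 (22.4%, 13.1 to 34.2), 25 of 71 in library 3 (35.2%, 24.2 to 47.5) and 14 of 65 in library 4 (21.5%, 12.3 to 33.5). The mean was 25.2% ± 6.69 (SD, n = 4), and 21.8% ± 0.468 without library 3 (n = 3). The pattern depends on choices: with the 15 left-out cells of runs of 8 consecutive numbers kept, the shares of libraries 1 to 4 were 21.6%, 30.7%, 35.2% and 27.8%, and with the threshold at 2000 CPM they were 36.5%, 23.9%, 43.7% and 29.2%. The intervals overlap and cover counting error only. Within a library the cells were spread unevenly over the cell numbers. In library 2 they were 2 of 22, 0 of 15, 4 of 8 and 9 of 22 kept cells numbered 1 to 24, 25 to 48, 49 to 72 and 73 to 96, and in library 1 they were 6 of 21, 6 of 23, 1 of 18 and 3 of 12. The sources used here do not say what a cell number stands for.

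Sequencing depth and gene detection were set side by side. Kept cells held 14613 to 346876 counts, and the 8 sums of a library and side held 1545880 to 9057830. Over libraries, the median cell held 99196 ± 24859 counts and 2924.5 ± 93.8 genes in Fos-low HSCs, against 107562 ± 40689 counts and 3033 ± 171 genes in other HSCs (SD, n = 4). The exact two-sided sign-flip test over 4 libraries, whose smallest possible p is 0.13, gave p = 0.875 for counts and p = 0.5 for genes. This test cannot pass at 0.05 and does not show that the sides were alike. In library 4 the medians were furthest apart, at 107552 counts and 2861.5 genes in Fos-low HSCs and 162714 counts and 3258 genes in other HSCs. Genes detected were lower in Fos-low HSCs in 3 of 4 libraries. Mitochondrially encoded transcripts took 1.43% and 1.39% of the median cell in Fos-low and other HSCs (exact p = 0.5). Ribosomal protein transcripts took 21.3% ± 1.33 in Fos-low HSCs and 19.3% ± 0.689 in other HSCs, higher in 4 of 4 libraries, with an exact p of 0.13, the smallest possible. The part of depth and of cell number in the gene results was not tested beyond the alternatives given with them. No cell had counts identical to those of another, and 26 cell numbers occurred in all 4 libraries.

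Fos-low HSCs were lower in a small set of genes, most of them immediate early genes, and in this test higher in none. Counts were summed per library and side and compared with edgeR's quasi-likelihood test, with the library as a block and Benjamini-Hochberg adjustment over 9693 genes; Fos was left out. At an adjusted p below 0.05, 17 genes were lower in Fos-low HSCs (0.175% of genes tested) and 0 were higher (0%). At an unadjusted p below 0.05, 257 (2.65%) were lower and 86 (0.887%) higher. Of the 17 genes, 13 belong to 3 lists of immediate early genes. Dnajb1 belongs to a list of heat shock and chaperone genes, and H3f3b and Atf4 belong to none. In all 17, every Fos-low sum lay below every other sum, which held for 285 of all genes tested (2.94%), and the reverse for 144 (1.49%). DESeq2 called 69 genes lower and 6 higher, and limma voom 20 and 0. Without library 2 the count of lower genes was 11. With the library and each side of the middle of the cell numbers as blocks, a fit added after the uneven spread was seen, 14 genes were lower, 13 of them among the 17.

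**Figure D2:**
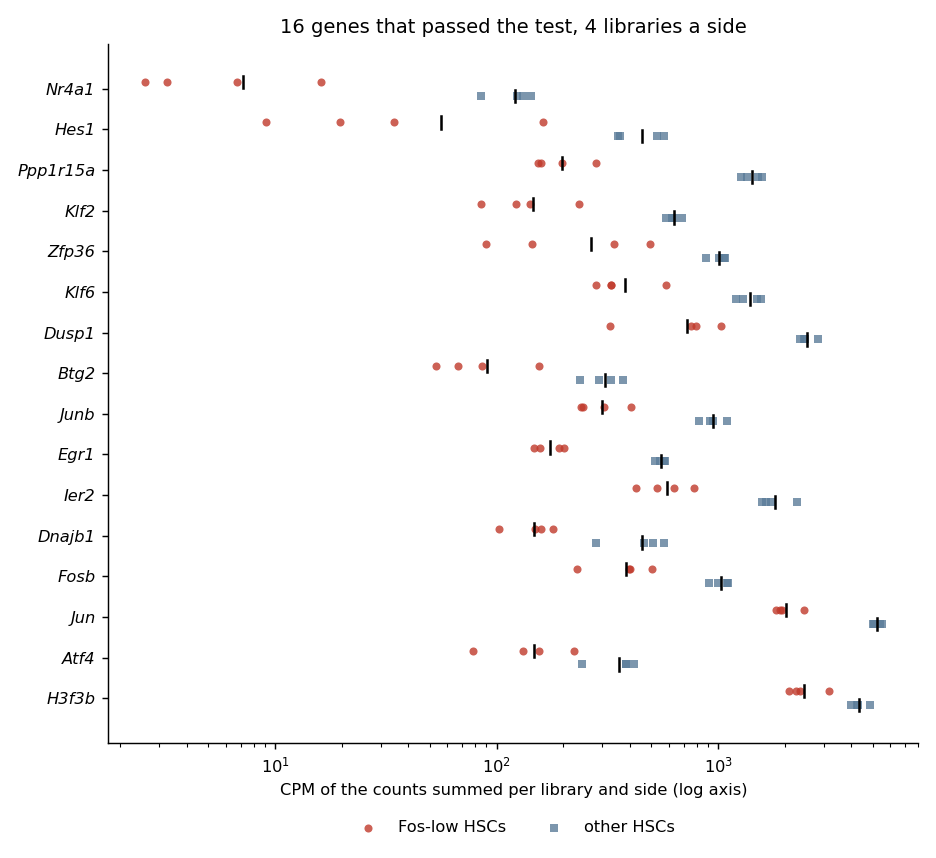
Genes that passed the test, 16 of the 17, as CPM of the counts summed per library and side (log axis); each point is 1 library, Fos-low HSCs are drawn above other HSCs, and short lines are means. In every gene the 4 Fos-low points lie left of the 4 other points.

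Of the AP-1 genes, Jun, Junb and Fosb were lower in Fos-low HSCs. Jun (ENSMUSG00000052684.4, chromosome 4, 95049034 to 95052222, minus strand), the main partner of Fos, stood at 1905, 1943, 1833 and 2446 CPM in Fos-low HSCs of libraries 1 to 4, against 5056, 5355, 5006 and 5471 CPM in other HSCs. No library overlapped, and the log2 difference was -1.39 (SE 0.094, edgeR adjusted p = 4.9e-05). Every one of the 70 Fos-low cells held a Jun count as deposited; after thinning to 20000 counts 83.9% ± 7.62 of Fos-low cells and 100% of other cells did. In the deposited counts, 10 of them stood above the median of the other cells of their library. In the median cell Jun stood at 1180, 1626, 366 and 1805 CPM in Fos-low HSCs, against 4729, 4864, 5284 and 5072 CPM in other HSCs.

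Junb, a Jun relative that often restrains growth, stood at 240, 406, 304 and 246 CPM in Fos-low HSCs and at 920, 1094, 949 and 819 CPM in other HSCs. Its log2 difference was -1.70 (SE 0.15, edgeR adjusted p = 0.00026). Fosb, the closest relative of Fos that is induced with it, stood at 230, 505, 396 and 398 CPM in Fos-low HSCs and at 908, 1113, 997 and 1092 CPM in other HSCs, a log2 difference of -1.49 (SE 0.16, edgeR adjusted p = 0.0018). On the Fos-low side both were lowest in library 1, and neither overlapped between the sides.

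The remaining AP-1 genes were rare or did not pass. Atf3, an AP-1 partner induced by stress, stood at 1.87, 5.44, 31.2 and 1.29 CPM in Fos-low HSCs and at 177, 240, 35.1 and 4.64 CPM in other HSCs (log2 -3.70, edgeR adjusted p = 0.99). In other HSCs its level differed between libraries, and in Fos-low HSCs 1 cell held 77.3% of its counts. It was called lower by DESeq2 (adjusted p = 0.0038) and, in edgeR, without library 3 (log2 -5.22). The log2 differences of Fosl2 (-2.24), Jund (-1.14), Batf2 (-1.46), Maff (-0.67), Mafk (-0.40), Batf (0.14) and Mafg (0.57) did not pass, and most of these genes stood below 50 CPM on both sides. Jund was at most 15.6 CPM in any sum. Fosl1 had a count in 0 of 70 and 1 of 207 cells, and Jdp2 in 1 of 70 and 4 of 207. Of 11 AP-1 genes tested, 3 were lower and 0 higher, with 4 and 0 at an unadjusted p below 0.05, DESeq2 calling 4 and 0 and limma voom 3 and 0. Over all genes tested in edgeR, 0.175% were lower by adjusted p, and 2.65% lower and 0.887% higher by unadjusted p.

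Zinc finger and nuclear receptor genes of the early response formed the second group. Egr1, a zinc finger factor induced with Fos and known in mouse HSCs for keeping them quiescent and in the marrow, stood at 157, 147, 192 and 201 CPM in Fos-low HSCs, against 521, 569, 575 and 546 CPM in other HSCs. The libraries differed little on each side and did not overlap, and the log2 difference was -1.69 (SE 0.18, edgeR adjusted p = 0.0015). Klf6, a Krüppel-like factor, stood at 281, 330, 582 and 328 CPM in Fos-low HSCs and at 1499, 1566, 1205 and 1296 CPM in other HSCs, a log2 difference of -1.94 (SE 0.21, edgeR adjusted p = 0.0018). Klf2, a related factor of quiescent lymphocytes and endothelium, stood at 141, 85.4, 123 and 236 CPM in Fos-low HSCs and at 622, 632, 689 and 583 CPM in other HSCs, a log2 difference of -2.22 (SE 0.25, edgeR adjusted p = 0.0022). With cells below 2000 CPM of Fos taken as Fos-low, Klf2 no longer passed (log2 -1.84).

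Nr4a1 (Nur77), an orphan nuclear receptor, had the largest log2 difference of the 17 genes. It stood at 16.2, 3.26, 6.76 and 2.59 CPM in Fos-low HSCs, against 85.5, 124, 142 and 132 CPM in other HSCs (log2 -4.36, SE 0.64, edgeR adjusted p = 0.0178). It had a count in 19 of 70 Fos-low cells and in 92 of 207 other cells. It lost the call in 5 of 18 alternatives, among them without library 2 (log2 -4.04), without library 4 (-3.96) and by limma voom (-4.24). Klf4 stood at 1.24, 14.1, 17.7 and 0 CPM in Fos-low HSCs and at 105, 114, 86.5 and 114 CPM in other HSCs, and did not pass (edgeR adjusted p = 0.295). Klf10 stood at 164, 93.0, 208 and 112 CPM in Fos-low HSCs and at 318, 340, 282 and 305 CPM in other HSCs, and did not pass either (edgeR adjusted p = 0.31). DESeq2 called both lower. Of 10 Egr, Nr4a and Klf genes tested, 4 were lower and 0 higher, with 8 and 0 at an unadjusted p below 0.05, DESeq2 calling 7 and 0 and limma voom 4 and 0. The edgeR shares over all genes tested were 0.175% lower by adjusted p and 2.65% lower by unadjusted p.

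The third group holds the other immediate early genes, led by adjusted p by Ppp1r15a and Ier2. Ppp1r15a (Gadd34), which brings protein phosphatase 1 to the translation factor eIF2α, stood at 282, 154, 159 and 197 CPM in Fos-low HSCs, against 1519, 1344, 1272 and 1577 CPM in other HSCs. It had the lowest adjusted p of all genes tested (log2 -2.90, SE 0.16, edgeR adjusted p = 1.2e-05). Dusp1, a phosphatase that switches off MAP kinases, stood at 324, 753, 792 and 1026 CPM in Fos-low HSCs and at 2476, 2838, 2334 and 2430 CPM in other HSCs (log2 -1.92, SE 0.23, edgeR adjusted p = 0.0026). Library 1 was lowest among the Fos-low sums of Dusp1 and highest among those of Ppp1r15a.

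Ier2, a short early response gene, stood at 633, 528, 427 and 775 CPM in Fos-low HSCs and at 1579, 1730, 1639 and 2266 CPM in other HSCs (log2 -1.65, SE 0.13, edgeR adjusted p = 0.00016). Zfp36 (tristetraprolin), which hastens decay of cytokine mRNAs, stood at 144, 89.2, 339 and 492 CPM in Fos-low HSCs and at 1070, 1013, 878 and 1058 CPM in other HSCs (log2 -2.22, SE 0.36, edgeR adjusted p = 0.0371). Btg2, an antiproliferative gene, stood at 85.9, 53.3, 156 and 66.6 CPM in Fos-low HSCs and at 238, 329, 373 and 291 CPM in other HSCs (log2 -1.88, SE 0.28, edgeR adjusted p = 0.0178). Of these 3 genes Zfp36 had the highest SD on the Fos-low side. Of 18 alternatives, Zfp36 lost the call in 4 and Btg2 in 6. Among the fits that leave out a library, Zfp36 lost the call without library 1 (log2 -1.97) or library 2 (-1.77), and Btg2 without library 2 (-1.62) or library 4 (-1.80).

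Hes1, the main Notch target, stood at 162, 19.6, 34.3 and 9.06 CPM in Fos-low HSCs, against 571, 530, 354 and 360 CPM in other HSCs (log2 -3.74, SE 0.50, edgeR adjusted p = 0.0082). The high value of library 1 stands apart in the Fos-low side, where 1 cell held 69.1% of all Hes1 counts. It had a count in 17 of 70 Fos-low cells and 114 of 207 other cells, or 12.5% ± 6.86 and 41.6% ± 10.8 of cells per library after each cell was thinned to 20000 counts (SD, n = 4). Hes1 lost the call in 3 of 18 alternatives: without library 2 (log2 -3.35), without the library as a block (-3.03) and with the Fos threshold at 2000 CPM (-2.60). Of the 34 other immediate early genes tested, 6 were lower and 0 higher, with 19 and 0 at an unadjusted p below 0.05, DESeq2 calling 12 and 0 and limma voom 6 and 0. For all genes tested in edgeR, the shares lower were 0.175% by adjusted p and 2.65% by unadjusted p.

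A few lower genes stand outside the immediate early lists. Dnajb1, an HSP40 cochaperone, stood at 102, 150, 179 and 158 CPM in Fos-low HSCs and at 508, 567, 282 and 463 CPM in other HSCs (log2 -1.63, SE 0.26, edgeR adjusted p = 0.0371). The 20 heat shock and chaperone genes tested had a median log2 difference of -0.13. Dnajb1 lost the call in 5 of 18 alternatives, among them without library 1 (log2 -1.41), library 2 (-1.51) or library 4 (-1.66). Among the abundant chaperones, Hsp90ab1 averaged 2233 ± 298 CPM in Fos-low HSCs and 2179 ± 71.2 CPM in other HSCs (log2 0.01), and Hspa8 1398 ± 245 and 1493 ± 123 CPM (log2 -0.13).

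H3f3b, a gene of histone H3.3, stood at 2081, 2248, 3152 and 2332 CPM in Fos-low HSCs and at 4227, 3986, 4841 and 4272 CPM in other HSCs (log2 -0.85, SE 0.098, edgeR adjusted p = 0.0022). Atf4, a factor of the integrated stress response, stood at 132, 155, 224 and 78.3 CPM in Fos-low HSCs and at 416, 382, 385 and 243 CPM in other HSCs (log2 -1.36, SE 0.22, edgeR adjusted p = 0.0371). How reads that fit both H3f3b and its relative H3f3a would have been counted is not stated. Atf4 and Ppp1r15a both belong to the stress response that acts through eIF2α, and a list of 15 more of its genes was drawn up after their values were seen. Atf4 lost the call in 7 of 18 alternatives, among them without library 1 (log2 -1.26), library 2 (-1.36) or library 4 (-1.27). Of 14 tested in the list, 0 passed in edgeR and 1 was lower at an unadjusted p below 0.05, against 2.65% of all genes tested. DESeq2 called 1 and limma voom 0, with a median log2 difference of -0.58. Its targets Trib3 (log2 0.01) and Ddit3 (-0.58) did not pass.

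Most immediate early genes lay below 0 in the log2 difference, whether or not they passed. Of 55 tested over the 3 lists, 13 were lower, against 0.175% of all genes tested. The log2 difference lay below 0 in 52, and all 55 had a median of -1.65, against -0.21 over all genes tested. Among them 31 were lower in 4 of 4 libraries, against 854 of 9693 genes (8.81%). List medians stayed below 0 in all 18 alternatives, from -1.70 to -0.89 for AP-1, from -3.03 to -1.73 for Egr, Nr4a and Klf factors and from -2.31 to -1.19 for the other immediate early genes. So did those of the HSC identity (-0.39 to -0.0025), NF-kB (-0.98 to -0.02), interferon (-0.65 to -0.10), platelet (-0.45 to -0.06) and dormancy lists (-0.78 to -0.17). The sign alone thus does not set the immediate early lists apart. Heat shock, lymphoid and S phase medians crossed 0. The median of all genes lay between -0.61 and 0.00 over the same fits. The lists were chosen with earlier results of these data known.

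Cell by cell, the 63 immediate early genes in the data, without Fos, took a smaller share of the counts of Fos-low cells. The median share in libraries 1 to 4 was 0.471%, 0.732%, 0.331% and 0.652% in Fos-low HSCs, against 2.09%, 2.05%, 1.86% and 1.87% in other HSCs. Few cells crossed the median of the opposite side. Of 70 Fos-low cells, 4 stood above the median of the other cells, 3 in library 3 and 1 in library 4. Of 207 other cells, 3 stood below the Fos-low median, all in library 2. The ranges overlapped in every library, however. The highest Fos-low cell of libraries 1 to 4 held 1.97%, 1.45%, 2.36% and 2.17%, and the lowest other cell 0.522%, 0.611%, 0.490% and 0.918%. Fos-low cells still held counts of a median of 12 of the 17 lower genes (range 5 to 16), against 15 in other cells (8 to 17).

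**Figure D3:**
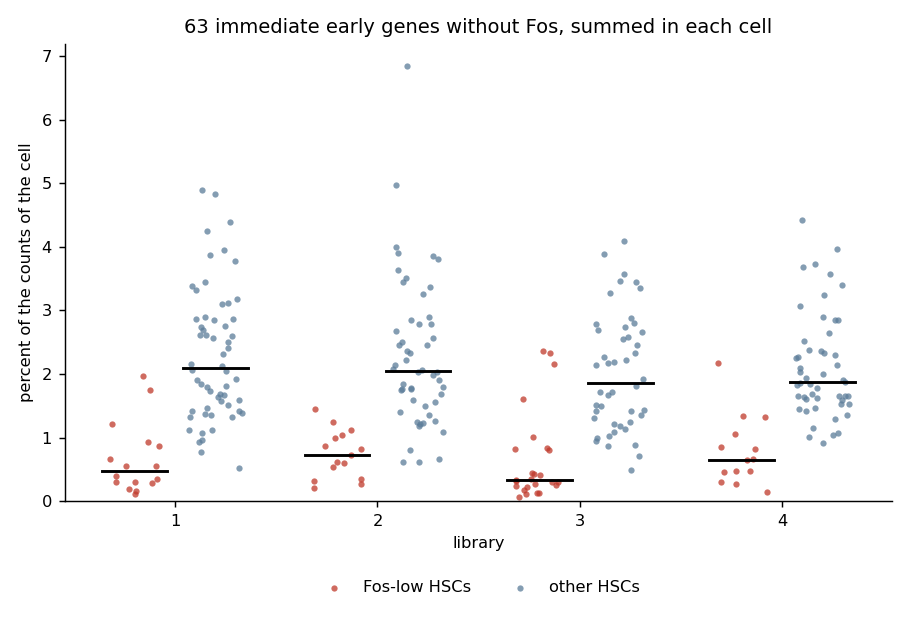
Percent of the counts of each kept cell that fell on 63 immediate early genes without Fos, by library; points are cells. Library medians were 0.331% to 0.732% in Fos-low cells and 1.86% to 2.09% in other cells.

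Means of the 17 lower genes were also compared across groups of rising Fos. Cells were grouped at below 1000 (70 cells), 1000 to 3000 (46), 3000 to 6000 (57) and 6000 CPM of Fos or above (104). Jun averaged 2032 ± 280, 4220 ± 580, 5008 ± 359 and 5940 ± 325 CPM in that order (SD, n = 4 libraries), with its largest step between the Fos-low cells and the next group. Egr1 averaged 174 ± 26.04, 347 ± 41.8, 496 ± 111 and 701 ± 73.8 CPM and Ppp1r15a 198 ± 59.2, 1032 ± 295, 1250 ± 515 and 1759 ± 269 CPM. Measured in CPM and not as a ratio, 5 of the 17 genes had their largest step there, 3 at the next and 9 at the last. Klf6, with 380, 863, 987 and 1938 CPM, was among those with the largest step in CPM at the last. As a ratio, however, its largest step was the first, from 380 to 863 CPM, so the ranking depends on the scale. All 17 genes had a higher mean at each step, against 344 of 9693 genes tested (3.55%), but the first step is set by the choice of these genes. At both steps above 1000 CPM of Fos, all 17 had a higher mean, against 1662 of 9693 (17.1%). The 17 were chosen as higher in the other HSCs summed, and 104 of those 207 cells stood at 6000 CPM or above. These steps are thus not independent of the choice either, and 17.1% is not a baseline for genes so chosen. Some first steps were small, as for Dnajb1 at 147 ± 32.5 and 148 ± 58.1 CPM. Within single libraries the order held at every step in 39 of 68 cases of a gene and a library. Fosb in library 2, for example, stood at 505 CPM in the Fos-low cells and 104 CPM in the next group. Library 2 has only 4 cells in the group from 1000 to 3000, and cells are grouped on Fos itself, so these steps are a description. The sorting antigen Ly6a gave 657 ± 199, 736 ± 215, 549 ± 216 and 689 ± 81.3 CPM, with no order.

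**Figure D4:**
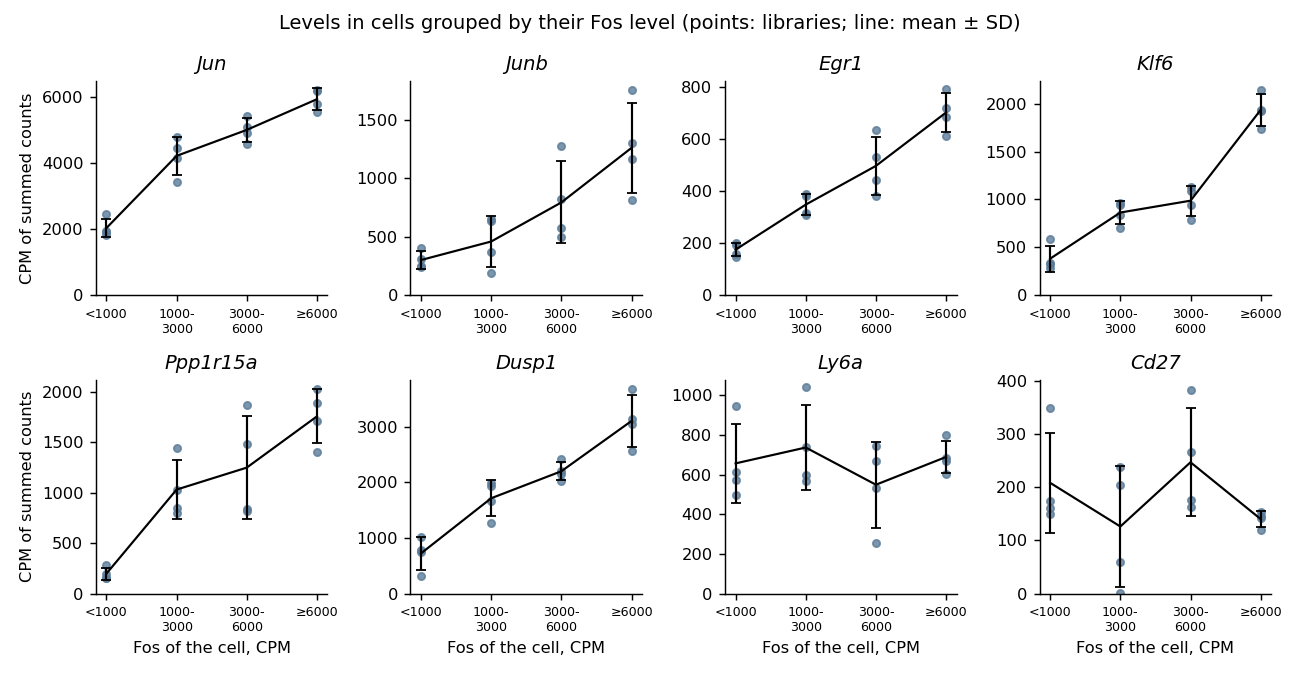
Levels of genes in cells grouped by their Fos level (CPM of the summed counts, low to high Fos); points are libraries and the line is the mean ± SD. The lower genes shown climb with Fos, as Jun does from 2032 to 5940 CPM, while Ly6a does not.

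None of the genes of the sorting antigens passed the test. Ly6a (Sca1) averaged 657 ± 199 CPM in Fos-low HSCs and 657 ± 64.0 CPM in other HSCs (SD, n = 4), Kit 194 ± 51.3 and 228 ± 55.1 CPM, Procr (EPCR) 288 ± 88.5 and 297 ± 40.0 CPM and Slamf1 (CD150) 54.8 ± 55.2 and 59.0 ± 27.1 CPM. Cd48 had a count in 0 of 70 and 2 of 207 cells. Cd27, on which the study was built, averaged 208 ± 93.8 CPM in Fos-low HSCs and 178 ± 56.6 CPM in other HSCs (log2 0.17, edgeR adjusted p = 0.99). Of 7 sorting genes tested, 0 passed in edgeR, DESeq2 or limma voom, and 0 passed at an unadjusted p below 0.05.

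No stem cell, lineage or signalling list besides these held a gene that passed in edgeR. Of 36 HSC identity genes 0 passed (2 lower and 0 higher unadjusted; median log2 -0.10), with Ifitm1 at 3020 ± 223 CPM in Fos-low HSCs and 3125 ± 247 CPM in other HSCs. Of 17 quiescence and dormancy genes 0 passed (2 lower unadjusted; median -0.35), with Apoe at 1398 ± 228 and 1711 ± 130 CPM (log2 -0.32). Medians were -0.25 for 18 megakaryocyte and platelet genes, 0.08 for 14 lymphoid and multipotent progenitor genes, -0.38 for 12 myeloid genes and 0.05 for 11 erythroid genes. They are to be set beside -0.21 over all genes and -0.02 over the 3860 genes at 50 CPM or above. The unadjusted counts are to be set beside 2.65% lower and 0.887% higher over all genes tested. The list upstream of Fos was also without a call: 34 MAP kinase and serum response factor genes gave a median of -0.37. A separate list of 23 NF-kB pathway genes gave -0.20, also without a call, and 0 passed an unadjusted p of 0.05 in either list. DESeq2 called 3 genes lower over these and the interferon and p53 lists, namely Cdkn1a (in both the dormancy and the p53 list), Epor and Ifit1, and limma voom called 0. A p that misses the threshold does not show that levels were equal.

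Metabolic, ribosomal and MHC class I lists lay close to 0, and the interferon response list lay further below it. Medians were 0.05 for 17 glycolysis genes, 0.12 for 57 nuclear oxidative phosphorylation genes, 0.02 for 11 mitochondrially encoded genes, 0.06 for 27 Myc target and ribosome biogenesis genes, -0.11 for 17 MHC class I genes and -0.25 for 29 interferon response genes. Ribosomal protein genes gave 0.05 over 81 genes; in the summed counts they took 215584, 184031, 202308 and 218258 CPM in Fos-low HSCs, against 193680, 193246, 191384 and 201507 CPM in other HSCs, so library 2 was lower. The summed markers of other cell types were low on both sides: B cell 77.3 and 111 CPM, T and NK cell 36.6 and 72.9, stromal 15.3 and 34.6, macrophage 18.2 and 25.9 and mast cell 0 and 0.086 CPM in Fos-low and other HSCs. Endothelial markers, which HSCs share in part, summed to 796 ± 137 and 823 ± 93.5 CPM.

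**Figure D5:**
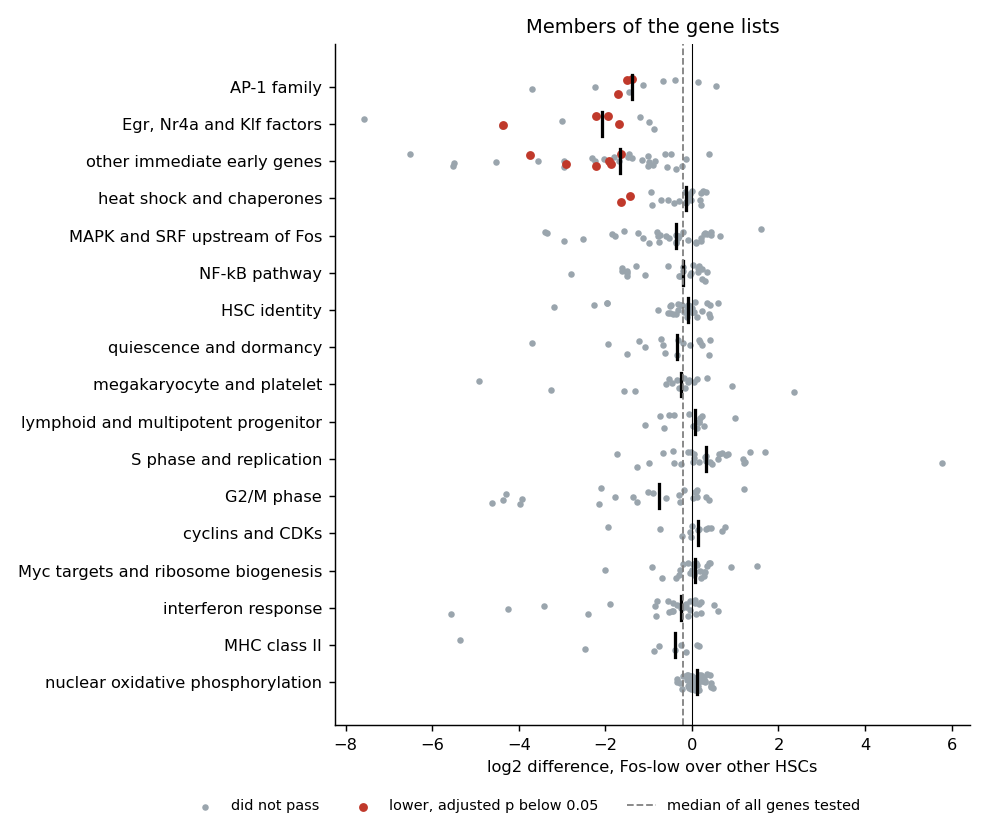
Log2 difference (Fos-low over other HSCs) of each tested member of the gene lists; larger coloured points passed at an adjusted p below 0.05 and the dashed line is the median of all genes tested, -0.21. The called members lie in the immediate early and heat shock lists.

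Cell cycle genes did not pass, and the summed level of the S phase genes differed in direction between libraries. S phase genes gave a median log2 difference of 0.31 over 29 tested genes, with 0 called, 4 higher at an unadjusted p below 0.05 and 1 called higher by DESeq2. At that unadjusted p, 0.887% of all genes tested were higher. Summed, they stood at 1856, 2804, 4867 and 1296 CPM in Fos-low HSCs, against 1541, 1385, 2091 and 1519 CPM in other HSCs. Library 3 was highest on both sides and library 4 was lower in Fos-low HSCs, and over the alternatives the median ran from -0.40 to 0.85. Pcna, the replication clamp, stood at 151, 253, 366 and 162 CPM in Fos-low HSCs and at 130, 115, 185 and 151 CPM in other HSCs (log2 0.60, edgeR adjusted p = 0.99). The 24 G2/M genes gave -0.75, or 0.03 over those at 50 CPM or above.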

How the data were processed

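RNA of single ESLAM SK HSCs was measured in 4 libraries. Per the labels' protocols, cells were sorted singly into tubes, barcoded with an oligo-dT primer, amplified by 20 cycles of PCR, pooled, enriched for 3′ ends and read in pairs of 150 bases. The authors deposited whole-number counts for each gene and cell, with no normalization. Per the submitters' processing notes, Trimmomatic 0.36, HISAT2 2.1.0, HTSeq 0.9.1 and GRCm38 were used. Whether reads were collapsed by molecular identifier or counted by strand is not stated. PCR copies may be among the counts, and intervals cover counting error only.

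Of 297 cells, 5 fell below 10000 counts or 1000 genes. A further 15 cells in runs of 8 consecutive numbers (library 2, 26 to 33, and library 4, 9 to 16) were left out, 14 of them below 1000 CPM of Fos. This kept 277 cells. The highest mitochondrial share was 4.58%. No doublet caller was run. CPM is the count scaled to the total of the cell, or of the cells summed per library and side.

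edgeR 4.0.16 (R 4.3.3) was run on the 8 sums with TMM scaling, filterByExpr and the library as a block, two-sided, and SE is the log2 difference over the root of F. The library pairs the sums because both sides are cells of 1 library. Residuals of the same library had correlations of 0.0042, 0.0133, -0.00073 and -5.02e-06 over 3860 genes. DESeq2 1.42.0 and limma 3.58.1 were alternatives. The test was also run on simulated data, where it missed many of the changed genes, so a gene that did not pass may still differ. Gene positions are from GENCODE M21 and promoters from RefSeq. Members, threshold and gene lists were chosen with earlier results of these data known. Named genes are the AP-1 family, the 12 genes with the largest difference each way among those at an adjusted p below 0.05, lower or higher in 4 of 4 libraries and at 50 CPM or above, the 4 highest and every called member of each list, and the sorting antigens. H3f3b, Atf4, the stress list, Klf4, Trib3, Ddit3 and the genes called by DESeq2 alone were named after their values were seen. The values of 1 of the 17 lower genes are not reported here.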

Additional observations from a re-analysis of the deposited data

Results flagged for a closer look

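The share of Fos-low HSCs was 35.2% in library 3, against 21.5% to 22.4% in the other libraries. Its gap to the nearest library, over the whole range, was 0.938, above Dixon's critical value for 4 samples. It was the only one of 29 values checked to exceed it, and chance gives about 1 in 20. At the 500 CPM threshold the gap was 0.847 and after thinning 0.910. It fell below the critical value with the threshold at 2000 CPM (0.363; shares of 36.5%, 23.9%, 43.7% and 29.2% in libraries 1 to 4), with the runs of 8 cells kept (0.453; 21.6%, 30.7%, 35.2% and 27.8%), with at least 50000 counts per cell (0.585) and without cells with Mki67, Birc5 or Ccnb2 (0.648). The exact binomial intervals of the 4 libraries overlap, and the cause was not tested.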

How the results depend on the processing

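The count of 17 lower and 0 higher genes was recomputed under 18 alternatives. DESeq2 gave 69 lower and 6 higher genes, all 17 among the 69, and testing without a filter on low counts gave 26 lower genes, all 17 among them. Leaving out each library in turn gave 11 to 21 lower genes and 0 higher. Without the library as a replicate block the count was 14, with Hes1, Atf4 and Zfp36 lost. The other alternatives gave 14 to 22 lower and 0 higher genes. Over 306 values of the 17 genes, all kept their direction, 275 kept the call and 31 lost it. Leaving out cells above 20% mitochondrial counts removed no cell. That alternative repeats the main fit and could not lose a call, yet its values are among the 275. Dusp1, Egr1, Fosb, H3f3b, Ier2, Jun, Junb, Klf6 and Ppp1r15a were among those that kept it in all 18, and Atf4, Btg2, Dnajb1, Hes1, Klf2, Nr4a1 and Zfp36 lost it in at least 1. The cause was not tested. The mean share of Fos-low HSCs was 33.3% at a threshold of 2000 CPM, against 25.2%. Limits: 4 libraries carry the tests, Fos-low sums rest on 14 to 25 cells a library, and rare genes can be set by 1 cell.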

Other observations

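The genes that DESeq2 called higher in Fos-low HSCs were Homer1, Ung, Kif21a, Asf1b, Vkorc1l1 and Tab2, named after their values were seen. Tab2, an adaptor of the TAK1 kinase, was the most abundant, at 69.7, 70.7, 117 and 131 CPM in Fos-low HSCs and at 16.02, 36.9, 18.3 and 29.1 CPM in other HSCs (log2 1.96, edgeR adjusted p = 0.478). The sides did not overlap. Ung, a uracil glycosylase of DNA repair, stood at 27.4, 56.6, 71.3 and 0 CPM in Fos-low HSCs and at 5.86, 0.339, 0 and 0 CPM in other HSCs, with a count in 9 of 70 and 3 of 207 cells (edgeR adjusted p = 0.99).

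Among genes that missed the threshold, Rgs2, a regulator of G protein signalling, stood at 86.5, 71.8, 136 and 43.3 CPM in Fos-low HSCs and at 283, 209, 226 and 296 CPM in other HSCs (edgeR adjusted p = 0.123). Id1, a target of BMP signalling, stood at 1.24, 0, 1.04 and 10.4 CPM in Fos-low HSCs and at 167, 150, 35.1 and 44.5 CPM in other HSCs (edgeR adjusted p = 0.191). Vwf, which marks platelet-biased HSCs in mice, had a count in 26.4% ± 5.13 of Fos-low cells and 42.2% ± 12.5 of other cells per library (SD, n = 4), or 20.4% and 32.4% after thinning, while its level was 58.4 ± 16.8 and 78.0 ± 42.0 CPM and did not pass.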
